A study of Homo sapiens with 8 samples.

Results

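Occupancy of the tRNA gene cluster on the short arm of human chromosome 6 by POLR3A, the largest and catalytic subunit of RNA polymerase III, was compared between cells of MDA-MB-231, a line from human breast cancer, and of MDA-LM2, a highly metastatic line derived from it. Each line had 2 POLR3A ChIP-seq libraries, called here parental library 1 and 2 for replicates 1 and 2 of MDA-MB-231, and LM2 library 1 and 2 for those of MDA-LM2. The labels name no treatment or genetic change, and both lines were grown in the same medium. The authors deposited 1 list of enriched hg19 regions per library, and the lines are compared to see where the polymerase is bound differently. The cluster was defined by position alone, as every listed region of chromosome 6 with its midpoint from 26000000 to 29000000, leaving out any region within 500 bp of the 3 isoleucine TAT tRNA genes that lie there. No listed region came that close, so none was left out. The rule gave 61 of the 1222 regions of the 4 lists: 43 of 646 in parental library 1, 1 of 18 in parental library 2, 3 of 86 in LM2 library 1 and 14 of 472 in LM2 library 2. Separate cultures are not mentioned for the replicates, so p-values measure only the spread between these libraries, which may be technical. In the sources used here no read numbers are given. The depth is therefore unknown, and a region missing from a short list is not shown to be unbound.

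RNA polymerase III makes tRNAs, 5S rRNA and other short RNAs. A tRNA gene carries its promoter inside the transcribed sequence, as an A box and a B box that are bound by the factor TFIIIC, which brings in TFIIIB and then the polymerase. The tRNA genes of chromosome 6 form the largest group in the human genome, and they lie among genes of replication-dependent histones and other protein-coding genes. Many tRNA genes are near-identical copies, so short reads of one copy can align to another, and the sources used here do not say how such reads were placed.

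The RefSeq gene table of GRCh38.p14 was used for the names and order of these genes, since no annotation of the files' own build was used. It holds 443 nuclear tRNA genes, of which 155 are on chromosome 6. There, 144 formed 1 run in which neighbouring tRNA genes were no more than 100 genes apart in the table, from TRX-CAT1-2, an initiator methionine tRNA gene, to TRL-AAG3-1, a leucine tRNA gene. This run makes up 32.5% of the nuclear tRNA genes and covers 19 classes when initiator and elongator methionine tRNAs are counted apart. Alanine tRNA genes were the most numerous with 27, followed by serine with 17, isoleucine with 13, arginine with 11 and leucine with 10. The alanine AGC family alone had 19 genes. Regions could not be assigned to single tRNA genes, because the gene positions belong to another build.

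POLR3A regions lay in groups along the cluster in parental library 1 and were fewer in the other lists. The 4 lists merged into 42 loci, a locus being a stretch of overlapping regions, and these ran from 26286453 to 28950241, a span of 2664 kb. All positions without a named chromosome are hg19 positions on chromosome 6, as the files give them. Every locus was listed in parental library 1. None was listed in an LM2 library alone or in parental library 2 alone. Parental library 1 has the longest list, and it held most regions of the other lists elsewhere too. Outside the cluster and over 2 Mb from the centromere and heterochromatin gaps of hg19, it held 87 of 103 regions of LM2 library 2 (84.5%). For LM2 library 1 it held 56 of 67 (83.6%), and for parental library 2 it held 12 of 13 (92.3%). The 43 regions of parental library 1 covered 0.590% of the 3 Mb window. On either side of the cluster chromosome 6 was bare over a long distance. No library listed a region before 26000000, and the next region after the window was 23.9 Mb beyond its end. The first and last regions inside lay 0.287 and 0.0502 Mb from the ends of the window, both in parental library 1 with strength scores of 17.3 and 23.5. The strength score is the authors' number per region, which the sources used here do not define. It was read from its values as higher for stronger regions, and it ranks regions within 1 list only.

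**Figure D1:**
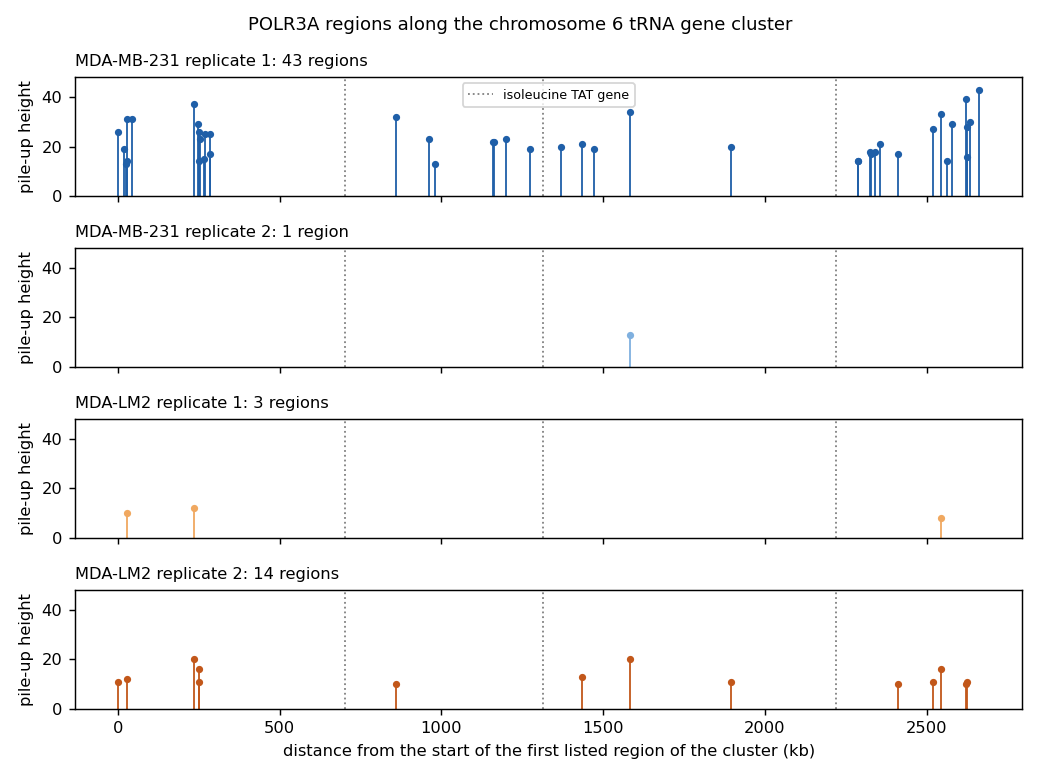
Pile-up height (vertical axis, reads at the highest position as deposited, not corrected for depth) of every cluster region in the 4 libraries, against the distance of its midpoint from the start of the first listed region in kb; dotted lines mark the 3 isoleucine TAT tRNA genes. Parental library 1 (MDA-MB-231 replicate 1) has 43 regions in groups along the span, with heights of 13 to 43. The other libraries have 1, 3 and 14 regions with heights of 8 to 20.

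The loci were grouped. Joining loci up to 100 kb apart gave 9 blocks. The largest held 9 loci over 144 kb at the far end, between 28806019 and 28950241. The blocks at the near end held 6 loci over 44.3 kb, from 26286453 to 26330752, and 8 loci over 51.0 kb, from 26521388 to 26572392. The widest stretch without any region, 572 kb, followed the second of these. The middle was sparser, with 7 loci over 313 kb from 27446425 to 27759419, and 3 blocks were single loci. A further 7 loci lay over 123 kb from 28574694 to 28697294. In parental library 1 the gap between neighbouring regions had a median of 17.02 kb and ran from 112 bp to 572 kb, and 8 of the 42 gaps were at most 1 kb. These close neighbours included a run of 3 regions between 26537400 and 26538536, with gaps of 128 and 122 bp and strength scores of 11.1, 18.8 and 17.02.

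The isoleucine TAT genes divide both the regions and the gene table, because their order on the chromosome is known in both. Their isoleucine tRNAs carry the anticodon that reads the AUA codon. The nearest regions of parental library 1 were 156, 38.6 and 69.2 kb away from the first, the second and the third of them, so none of the 3 had a region of this list nearby, and no other list came closer. Before the first of these genes, the run of the gene table holds 44 tRNA genes, led by 12 of alanine and 5 of elongator methionine, and parental library 1 listed 15 regions. The same part of the run has 6 butyrophilin genes, which encode immunoglobulin-like membrane proteins. Between the first and the second, the table has 40 tRNA genes, 11 of them for serine, and the list had 7 regions. Between the second and the third there were 18 tRNA genes and 5 regions, and of the 4 stretches this one carries the most histone genes, 16, with 10 zinc finger genes. After the third there were 39 tRNA genes, with 15 of alanine and all 6 of phenylalanine, and 16 regions. There were thus 2.93, 5.71, 3.60 and 2.44 tRNA genes for each listed region along the chromosome. A region can cover more than 1 gene, and whether the outermost genes of the run lie inside the window was not tested. LM2 library 2 listed 5, 1, 3 and 5 regions in the 4 stretches, LM2 library 1 listed 2, 0, 0 and 1, and the 1 region of parental library 2 lay between the second and the third gene.

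Of the 42 loci, 13 were listed in at least 2 libraries (31.0%, exact Clopper-Pearson 95% interval 17.6 to 47.1%), against 37.2% of all 788 merged regions of the series. Among merged regions outside the cluster and over 2 Mb from the centromere and heterochromatin gaps of hg19, the share was 98 of 186 (52.7%, 45.3 to 60.04%). The cluster itself is far from any such gap, so these are the nearer comparison. Intervals cover counting error only, and neighbouring regions are not independent of each other. Without parental library 1 the number of such loci was 3, and without LM2 library 2 it was 4.

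Listed in 3 libraries were 4 loci, and none was listed in all 4. The locus at 27870265 to 27871093, between the second and the third isoleucine TAT genes, was the only one of the cluster in parental library 2. Its pile-up height was 34 in parental library 1, 13 in parental library 2 and 20 in LM2 library 2, and it was not listed in LM2 library 1. It ranked 147 of 646, 17 of 18 and 174 of 472 by strength score in these lists. It was thus the highest ranked locus of the cluster in LM2 library 2, and next to last in the whole list of parental library 2.

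The other 3 of these loci were shared by parental library 1 and both LM2 libraries. The locus at 26521388 to 26521691 had heights of 37 in parental library 1, 12 in LM2 library 1 and 20 in LM2 library 2. Its highest positions were at 26521547, 26521531 and 26521477 in that order, all within the 303 bp of the locus. It was the strongest cluster locus of LM2 library 1, at rank 58 of 86. At 26313088 to 26313671 the heights were 31, 10 and 12, and at 28831276 to 28831770 they were 33, 8 and 16. In the last, the regions of the LM2 libraries overlapped that of parental library 1 but not each other, with highest positions at 28831411 and 28831579. All 3 were low in the list of LM2 library 1, at ranks 58, 60 and 77.

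The remaining 9 shared loci were listed in parental library 1 and LM2 library 2. In the list of LM2 library 2, 8 of them stood at ranks 390 to 455 of 472. The locus at 28908573 to 28909504 was the strongest of the cluster in parental library 1, with a height of 39 and rank 86 of 646. In LM2 library 2 its height was 10, at rank 443 of 472. The locus at 27144674 to 27145278 had a height of 32 and rank 135 in parental library 1, and a height of 10 and rank 455 in LM2 library 2, the lowest rank of any cluster region there. That at 26537400 to 26538182 had heights of 26 and 16 and ranks of 244 and 306, and it was made of 2 regions in each list. At 26286453 to 26286961 the heights were 26 and 11, and at 28806019 to 28806571 they were 27 and 11. The loci at 27720807 to 27721422, 28180562 to 28181058, 28696998 to 28697294 and 28911447 to 28911682 had heights of 21 and 13, 20 and 11, 17 and 10, and 16 and 11. The height was greater in parental library 1 at every one of these 9.

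**Figure D2:**
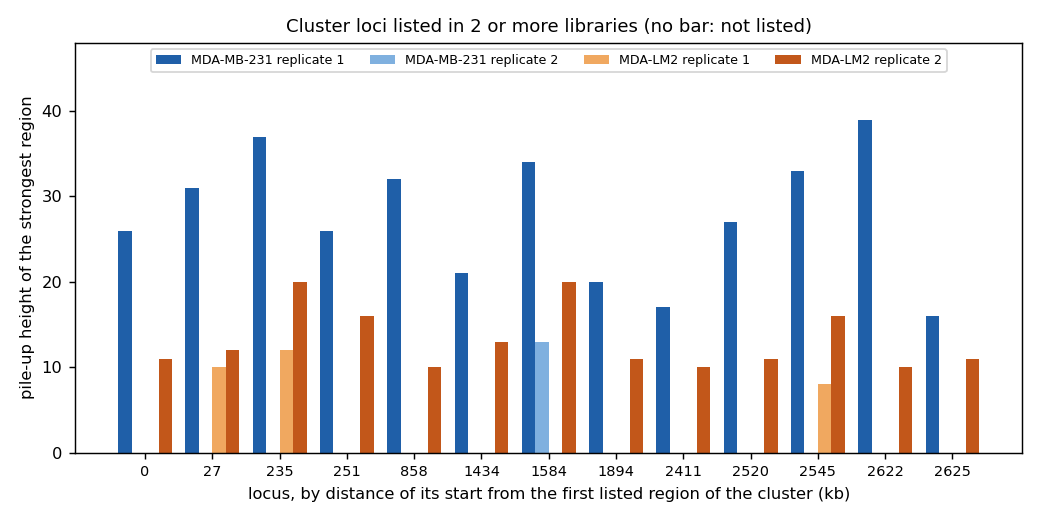
Pile-up height (vertical axis, reads as deposited, not corrected for depth) of the strongest region of each library at the 13 loci listed in at least 2 libraries, in order along the chromosome by distance of the locus start from the first listed region in kb; no bar means not listed. The heights of parental library 1, from 16 to 39, exceed those of LM2 library 2, from 10 to 20, at all 13 loci.

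Over the 13 loci, the height in parental library 1 was 1.85 times that in LM2 library 2 at the median, with a range of 1.45 to 3.90. Heights are not corrected for depth, so the ratio itself does not compare the lines. At the 83 loci outside the cluster and away from the gaps that both lists held, the median ratio was 1.6 with a range of 0.700 to 3.82. All 13 cluster loci and 73 of the 83 others were thus higher in parental library 1, and the range of the others reached lower than that of the cluster. For parental library 1 over LM2 library 1, the median ratios were 3.10 at 3 cluster loci and 2.58 at 51 others. For LM2 library 2 over LM2 library 1, they were 1.67 at 3 cluster loci and 1.69 at 40 others. A difference of the ratios between the cluster and the other loci was not tested. The highest positions of parental library 1 and LM2 library 2 were 120 bp apart at the median (16 to 342), and at 11 of the 13 loci that of LM2 library 2 lay inside the strongest region of parental library 1. Strength scores at the 13 loci were weakly related between the lists, with a Pearson's r of 0.41 and a Spearman's rho of 0.25 across loci, which share their libraries and are given as a description.

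As given above, 31.0% of cluster loci were listed in at least 2 libraries, against 37.2% of all merged regions and 52.7% of those outside the cluster and away from the gaps. The share listed in parental library 1 alone is not given outside the cluster. In the cluster every locus was listed in parental library 1, so the loci listed there alone are the rest of those just counted. They were 29 of the 42 (69.0%), which adds nothing to the comparison above. The 5 strongest of them were at 28949280 to 28950241, with a strength score of 23.5, at 28920793 to 28921533, with 19.7, at 26330373 to 26330752, with 19.5, at 28912127 to 28912545, with 19.2, and at 28863854 to 28864313, with 18.9. Their pile-up heights were 43, 30, 31, 28 and 29. The first of these had the highest pile-up of the whole cluster, and 4 of the 5 lay in the block at the far end. The other 4 lay within the range of 16 to 39 that the shared loci had in this library. The 29 regions of parental library 1 that were missing from LM2 library 2 lay 37.7 kb from its nearest region at the median, and 3 of them lay within 1 kb.

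All cluster regions of the LM2 libraries overlapped one of parental library 1, while most of those of parental library 1 had no counterpart. A region counted as found in another list where it overlapped a region there by at least 1 bp. Of the 43 cluster regions of parental library 1, 14 were found in LM2 library 2 (32.6%, exact 95% interval 19.1 to 48.5%), against 46.7% of the whole list. Among the list's other regions away from the gaps, the nearer comparison, it was 87 of 165 (52.7%, 44.8 to 60.5%). In LM2 library 1, 3 of 43 were found (6.98%, 1.46 to 19.1%), against 9.75% of the list and 50 of the 165 others away from the gaps (30.3%, 23.4 to 37.9%). For LM2 library 1 these intervals did not overlap, while for LM2 library 2 they did. Neighbouring regions are not independent, so this is a description and not a test. In parental library 2 it was 1 of 43, against 2.48% of the list and 12 of the 165 (7.27%).

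In the opposite direction, all 14 cluster regions of LM2 library 2 were found in parental library 1 (exact 95% interval 76.8 to 100%), against 66.5% of that list. Among its other regions away from the gaps 87 of 103 were found (84.5%, 76.0 to 90.9%), and so were all 10 regions at 8 to 9 Mb of chromosome 17 and all 5 at 161 to 162 Mb of chromosome 1. Of the 14, 2 were found in LM2 library 1 (14.3%, 1.78 to 42.8%), against 11.2% of the list and 40 of the 103 others away from the gaps (38.8%, 29.4 to 48.9%). Regions of 1 library are not replicates, so these shares were not tested. Under a reciprocal overlap of 50%, 3 of the 43 (6.98%) were found in LM2 library 2, and with the stronger 50% of each list 2 of 18 (11.1%). Shares outside the cluster are not given at these settings, so the lower values are not shown to be particular to the cluster. Most cluster regions of LM2 library 2 were in the weaker 50% of its list, which limits the second value.

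Regions found again had the higher median strength. In parental library 1, the 14 found in LM2 library 2 had a median strength score of 18.1 (11.1 to 25.4), and the 29 not found had 14.9 (10.6 to 23.5). The ranges overlapped. Of the 10 strongest cluster regions 6 were found in LM2 library 2, 3 in LM2 library 1 and 1 in parental library 2, and of the 10 weakest 2, 0 and 0. Cluster regions were somewhat weaker than the other regions away from the gaps, with median scores of 15.9 and 17.5 in parental library 1. Regions were therefore also split at the cluster's median score. This does not match strength fully above the median, where other regions reached a score of 79.4 and cluster regions 25.4. Above the cluster's median score, 10 of 21 cluster regions were found in LM2 library 2 (47.6%, 25.7 to 70.2%), and 71 of 105 others (67.6%, 57.8 to 76.4%). At or below it, 4 of 22 were found (18.2%, 5.19 to 40.3%), and 16 of 60 others (26.7%, 16.1 to 39.7%). In LM2 library 1, the same classes gave 3 of 21 cluster regions (14.3%, 3.05 to 36.3%) and 40 of 105 others (38.1%, 28.8 to 48.1%), and 0 of 22 (up to 15.4%) and 10 of 60 (16.7%, 8.29 to 28.5%). The share was lower in the cluster in both classes for both LM2 libraries, and the intervals overlapped in all 4 pairs of shares.

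**Figure D3:**
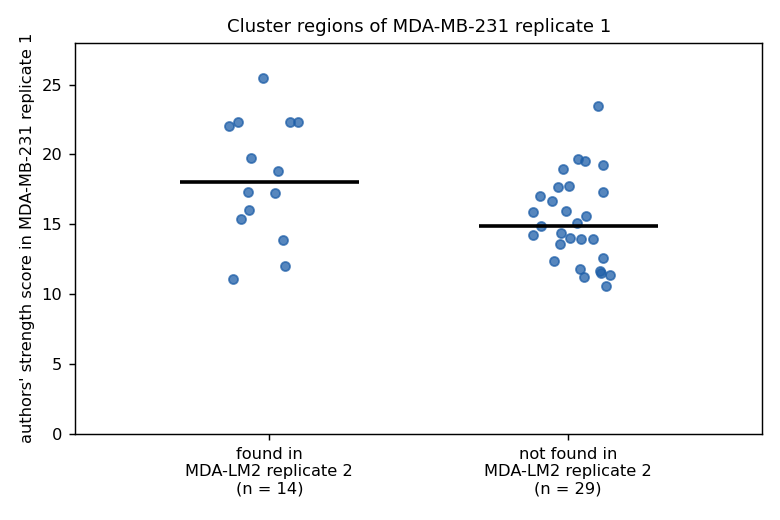
The authors' strength score in parental library 1 (vertical axis, no unit) of its 43 cluster regions, split by whether LM2 library 2 lists an overlapping region; points are regions, spread sideways for legibility, and bars are medians. The medians are 18.1 for the 14 found and 14.9 for the 29 not found, and the ranges overlap.

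No difference between the lines was detectable in the number of cluster regions. MDA-MB-231 had 22 ± 29.7 and MDA-LM2 8.5 ± 7.78 (SD, n = 2 each), a difference of -13.5 for MDA-LM2 minus MDA-MB-231 (exact two-sided permutation p = 1, where the smallest possible is 0.333). The difference was 7.5 without parental library 1 and -34.5 without parental library 2, so its direction rested on 1 library. Relative to its list, the cluster made up 6.66% and 5.56% of the regions in the parental libraries 1 and 2, and 3.49% and 2.97% in the LM2 libraries 1 and 2. The shares of the lines did not overlap, with means of 6.11 ± 0.778% and 3.23 ± 0.369% (SD, n = 2 each). The difference of -2.88 percentage points had the smallest p that this design allows (exact two-sided permutation p = 0.333), which does not pass 0.05. The exact 95% intervals of single shares were wide, at 0.141 to 27.3% for the 1 region of parental library 2 and 0.725 to 9.86% for the 3 of LM2 library 1. Counted over regions away from the centromere gaps only, the shares were 20.7% and 7.14% in MDA-MB-231 and 4.29% and 11.97% in MDA-LM2. These overlapped, with a difference of -5.78 percentage points (exact permutation p = 0.667). Without parental library 1 this difference was 0.983, and without parental library 2 it was -12.5, so here too the direction rested on 1 library. Without LM2 library 1 or 2 it was -1.94 or -9.62.

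Cluster regions stood at different places in the lists. The strongest was at rank 86 of 646 in parental library 1 and at rank 174 of 472 in LM2 library 2, and in the latter 10 of the 14 came after rank 323, a number that is 50% of the list of parental library 1. The median percentile of strength within the list was 41.7 for the 43 regions of parental library 1 and 13.7 for the 14 of LM2 library 2. Among the 18 strongest regions, only parental library 2, with its whole list, had a cluster region. Among the 86 strongest there was 1 in parental library 1, 3 in LM2 library 1, which is its whole list, and 0 in LM2 library 2. Among the 323 strongest there were 18 in parental library 1 and 4 in LM2 library 2. Among the 472 strongest, the whole list of LM2 library 2, there were 31 and 14. Among the 70 strongest away from the gaps, the cluster held 10 in parental library 1, 3 in LM2 library 1, which has no more, and 4 in LM2 library 2. Among the 117 strongest away from the gaps, all that LM2 library 2 has, it held 19 in parental library 1 (16.2%) and 14 in LM2 library 2 (11.97%). These are 1 library each, and lists of different lengths show no change by rank.

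**Figure D4:**
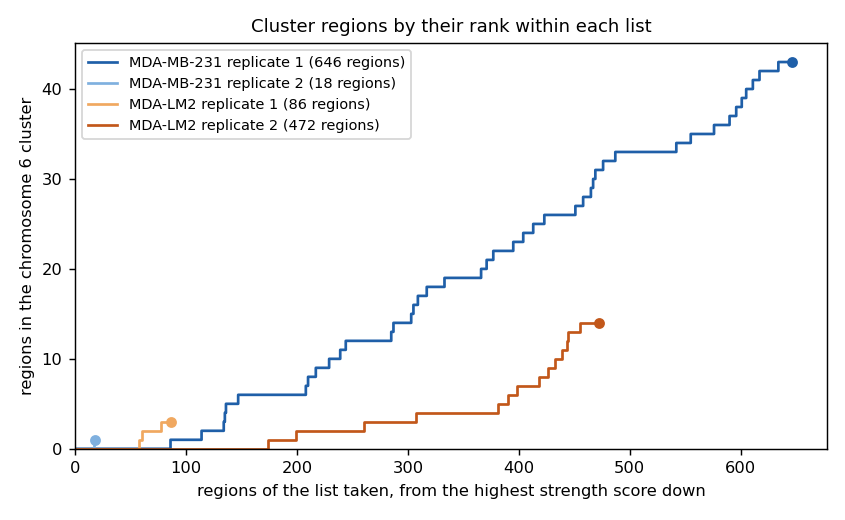
Number of cluster regions (vertical axis) among the strongest regions of each list, taken from the highest strength score of that list down (horizontal axis, regions taken); a dot marks the end of each list. The line of parental library 1 reaches 18 after 323 regions and 43 at the end, and that of LM2 library 2 reaches 4 after 323 regions and 14 at the end.

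Other windows rich in POLR3A regions were listed in other proportions. Each is shorter than the 3 Mb window of the cluster, so the numbers are not counts over equal lengths. On chromosome 17 at 8 to 9 Mb, parental library 1 listed 11 regions against 43 in the chromosome 6 cluster. LM2 library 1 listed 7 against 3, LM2 library 2 listed 10 against 14, and parental library 2 listed 0 against 1. On chromosome 1 at 161 to 162 Mb the numbers were 8, 4 and 5 in the same order, and parental library 2, with 1 region in the cluster, listed 3. In LM2 library 2 the median percentile of strength was 13.7 in the cluster, 50.95 in the chromosome 17 window and 49.5 in the chromosome 1 window. In parental library 1 these were 41.7, 47.9 and 66.9. The cluster was thus the lowest ranked of the 3 windows in both of these lists, though not in LM2 library 1, where the values were 30.8, 18.02 and 53.5. The difference between the windows was not tested, since regions of 1 library are not replicates.

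Cluster regions differed in shape between the lists. Their median width was 406 bp in parental library 1 (100 to 961), 158 bp in LM2 library 1 (123 to 169) and 169 bp in LM2 library 2 (100 to 301), and the 1 region of parental library 2 was 454 bp wide. Outside the cluster and away from the gaps, the median widths were 369, 169 and 251 bp in the first 3 of these lists. In parental library 2 the median there was 174 bp. At all 13 shared loci the strongest region of parental library 1 was wider than that of LM2 library 2, with medians of 542 and 169 bp. The highest position lay near the middle of a region, at a median of 38.0 bp from the midpoint in parental library 1 and 36.5 bp in LM2 library 2. Median widths differed between the lists both in the cluster and outside it. The order of the lists was not the same, since parental library 2, with 1 cluster region, changed place. The part of read depth in the widths was not tested.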

How the data were processed

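The authors deposited 1 list of regions for each of the 4 POLR3A ChIP libraries, so regions were called per library. No file of the 4 input libraries was used here. Per the submitters' processing notes, hg19, Bowtie2 2.2, bedtools and DESeq were used, in roles the notes do not give. The sources used here give neither caller nor threshold. Each list has 11 columns without a header, read from their values. The deposited strength score is positive and undefined in these sources, and a further deposited score behaves like a logarithm of a p-value, always below -10. The deposited signal is a whole-number pile-up height without visible depth correction. Whether starts count from 0 or 1 is not stated.

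Regions overlapping by 1 bp or more counted as shared, and overlapping regions of the 4 lists were merged. Shares have exact Clopper-Pearson 95% intervals. Lines were compared by exact two-sided permutation of the libraries (Python 3.11.15, scipy 1.17.1). Overlap and permutation code was tested on simulated regions. Gap bounds of hg19 came from general knowledge, rounded to 0.1 Mb. Named loci were all those in 2 or more libraries, the 5 strongest of parental library 1 alone and the regions at the window's ends. The members, lists and windows were chosen with earlier results of these data known. No sequence is shown, because no genome of the files' build was used.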

Additional observations from a re-analysis of the deposited data

How the results depend on the processing

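No line difference passed 0.05 under any setting, and 2 libraries against 2 cannot reach it. The difference in cluster regions per library was -13.5 (LM2 less parental). Counting regions near isoleucine TAT genes could not change it, since no listed region lay within 500 bp of them. The difference kept its sign with the stronger 50% of each list (-8) or the strongest 18 (-0.5). It changed sign with the strongest 86 (0.5), a setting chosen after seeing the data in which parental library 2 enters with its whole list of 18, and ran from -34.5 to 7.5 when each library was left out in turn. For the cluster's share of the list, most alternatives left out 1 of the same 4 libraries, and the replicate block can change only the p-value. The alternatives are therefore not independent of each other. The difference in this share was negative in 11 of 12 of them. It was 0.983 percentage points over regions away from the gaps without parental library 1 and -12.5 without parental library 2, the extremes when 1 library was left out, over either denominator. Leaving out libraries over regions away from the gaps was also chosen after seeing the data. With the replicate number as a replicate block, the differences stayed at -13.5 regions (exact permutation p = 1) and -2.88 percentage points (p = 0.5, the smallest possible). The labels do not say that the numbers pair cultures. The share of cluster regions of parental library 1 found in LM2 library 2 fell from 32.6% to 6.98% under the reciprocal overlap. At the 13 shared loci the strongest regions had median widths of 542 bp in parental library 1 and 169 bp in LM2 library 2. The part of width in the fall was not tested. The share was 11.1% with the stronger 50% of each list, while midpoints within 500 bp gave 34.9%. Shares outside the cluster are not given at these settings. The loci in at least 2 libraries stayed at 13 with regions within 500 bp merged, and ran from 3 to 13 when each library was left out. Read depth is unknown, which limits every statement about missing regions.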
